A study of Mus musculus with 8 samples.

Results

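The genes described here are the Wnt ligands, their receptors and co-receptors, and the inhibitors, feedback genes and transcription factors of the same pathway, followed while c-Src was switched on for up to 72 h in fibroblasts from mouse embryos. They were chosen by gene name from the array's annotation, with earlier results of these data known: the Wnt, Fzd, Sfrp and Dkk families and further named genes of the pathway. The array held 70 probes for 56 such genes. A gene was tested if a probe for it was well above background on both arrays of at least 1 time, which 35 of the 56 genes were, among 20839 genes tested in all.

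All cells lacked Csk (Csk-/-), which normally holds Src family kinases inactive by phosphorylating them, and had been transfected with the vector pBKT2-c-Src, from which doxycycline at 1 µg/ml switches on c-Src. There were 4 groups of 2 arrays each (8 arrays), taken after 0, 6, 24 and 72 h of induction, and the 0 h cells carried the same deletion and the same vector. The labels name the cell type as MEF (mouse embryonic fibroblast) and give neither the age of the embryos nor whether the transfected cells are a clone or a pool. Nothing in them says whether duplicate arrays came from separate cultures, and every p-value therefore rests on a spread between arrays that may be only technical. Each later group had received doxycycline as well as c-Src, and doxycycline, c-Src and hours in culture cannot be told apart in this design.

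Wnt proteins are secreted lipid-modified ligands that bind Frizzled receptors together with the co-receptors Lrp5 and Lrp6. In the canonical branch this stops a cytoplasmic complex built on Axin from destroying beta-catenin, which then enters the nucleus and acts with the transcription factors Lef1, Tcf7, Tcf7l1 and Tcf7l2. Axin2, Nkd1, Notum, Lef1, Sp5, Znrf3 and Rnf43 are textbook targets of that branch, several of them feedback inhibitors of it, while ligands such as Wnt5a and Wnt11 are best known for signalling without beta-catenin in cell migration and polarity.

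Signals are given as the processed intensity of the probe after each array was brought to the same 75th percentile, here called the scaled signal. It is a linear brightness, comparable between arrays for 1 probe and not between probes. Across the 8 arrays the share of spots well above background was 49.9% to 54.7%, 0 spots were saturated, and the 2 arrays of each time had a correlation over genes of 0.9964 to 0.9975. As a check of the labels, Src had scaled signals of 149.3 and 166 at 0 h and of 3081.3 to 4275.9 on the 6 later arrays. The Csk probe was well above background on 0 of 8 arrays. No array held cells with Csk, so a probe that does not work would read the same, and the deletion was not checked. Of 12 fibroblast markers 10 were tested, and Thy1 was never above background. Of the marker lists of other cell types, 5 of 8 epithelial, 4 of 7 macrophage, 3 of 6 endothelial, 2 of 6 skeletal muscle and 2 of 5 adipocyte genes were tested. Well above background on 0 of 8 arrays were Cdh1, Cldn4 and Epcam (epithelium), Ptprc, Adgre1 and Tyrobp (macrophages), Cdh5, Cldn5 and Tie1 (endothelium), Myod1, Myog, Ckm and Myh3 (skeletal muscle) and Adipoq, Plin1 and Cidec (adipocytes). The tested members are described after the ligands.

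Before the values, the promoter sequences show what the genes that fell do and do not share by sequence. RefSeq promoter windows on GRCm38.p6 were matched for 37 of the 56 genes (46 windows, since a gene can have several start sites). They were searched on both strands for CTTTGA (reverse complement TCAAAG), the core letters that TCF and LEF proteins recognise, and for the longer forms CTTTGAA and CTTTGAT, which contain it. The windows below are those of Axin2, which fell below background by 24 h, and of the 4 tested genes with a match (Lef1, Wnt5b, Wnt11 and Fzd1, all of them lower at 72 h). Each is the 250 bases before the start site, 5′ to 3′ on the gene's strand, with matches in capitals: Axin2 chr11:108920099-108920348 (+), Lef1 chr3:131156044-131156293 (+), Wnt5b chr6:119449387-119449636 (-), Wnt11 chr7:98834862-98835111 (+) and Fzd1 chr5:4758217-4758466 (-).
Axin2: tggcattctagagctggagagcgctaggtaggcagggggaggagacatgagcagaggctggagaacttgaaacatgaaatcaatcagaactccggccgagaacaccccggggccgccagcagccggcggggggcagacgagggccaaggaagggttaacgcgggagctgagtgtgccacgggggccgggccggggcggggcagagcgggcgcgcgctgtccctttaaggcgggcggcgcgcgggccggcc
Lef1: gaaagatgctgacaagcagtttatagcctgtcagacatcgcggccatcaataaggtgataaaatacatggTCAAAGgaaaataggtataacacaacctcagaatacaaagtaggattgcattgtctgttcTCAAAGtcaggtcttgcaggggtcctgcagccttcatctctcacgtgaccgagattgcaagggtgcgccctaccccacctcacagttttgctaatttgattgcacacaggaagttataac
Wnt5b: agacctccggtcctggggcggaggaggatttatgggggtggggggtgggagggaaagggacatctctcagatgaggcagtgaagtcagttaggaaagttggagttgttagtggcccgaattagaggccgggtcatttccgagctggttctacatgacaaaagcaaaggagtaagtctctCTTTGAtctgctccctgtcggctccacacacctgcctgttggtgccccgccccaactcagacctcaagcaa
Wnt11: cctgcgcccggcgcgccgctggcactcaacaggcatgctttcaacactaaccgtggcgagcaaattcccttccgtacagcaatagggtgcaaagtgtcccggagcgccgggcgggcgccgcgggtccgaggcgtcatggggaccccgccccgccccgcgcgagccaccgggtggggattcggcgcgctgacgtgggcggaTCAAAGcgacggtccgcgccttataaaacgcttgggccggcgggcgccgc
Fzd1: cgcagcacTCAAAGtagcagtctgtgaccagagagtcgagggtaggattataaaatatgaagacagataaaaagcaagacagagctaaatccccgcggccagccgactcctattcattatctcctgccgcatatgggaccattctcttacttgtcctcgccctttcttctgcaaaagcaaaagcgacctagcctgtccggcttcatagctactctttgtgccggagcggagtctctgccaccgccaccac
The Lef1 window belongs to the most downstream of its 4 listed start sites and has matches at positions -180 and -120 from that site. Wnt5b has a match at -71, Wnt11 at -50 and Fzd1 at -242, and those of Wnt5b and Wnt11 are also CTTTGAT. Wnt5b has 3 listed windows and Wnt11 has 2, and in each gene only the window shown holds a match, while Fzd1 and Axin2 have 1 window. That of Axin2 has none, which says only that these letters are not in this window. Of the 16 genes that were lower at 72 h and have a window, 4 (25%) hold CTTTGA in at least 1 window, beside 18.2% of 27025 genes in the whole table. Over the same 300-base windows the shares are 4 of 24 (16.7%) and 16% of 32851. Of the 5 tested genes with a window that were not lower at 72 h, 0 hold it. Of all 37 genes with a window, tested or not, 7 (18.9%) hold it, among them Dkk1, Frzb and Sp5, which were not tested. The counts are a description of these letters and are near the share of all promoters.

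The 35 genes moved mostly downward, and more of them with time. Against 0 h, 1 was higher and 6 were lower at 6 h, 2 higher and 17 lower at 24 h, and 3 higher and 21 lower at 72 h (limma, Benjamini-Hochberg adjusted p below 0.05 over all 20839 genes). The background in the same fits is large: 17.6% of all genes were called at 6 h, 41.5% at 24 h and 52% at 72 h. In the downward direction the background was 7.24%, 20.1% and 24.6%, beside 17.1%, 48.6% and 60% of the Wnt genes. In the upward direction it was 10.3%, 21.4% and 27.5%, beside 2.86%, 5.71% and 8.57% of the Wnt genes. The median log2 difference of the 35 genes was -0.15, -0.31 and -0.53, beside 0, -0.02 and 0 over all genes tested.

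Those counts include 8 genes that were well above background on fewer than 8 arrays, some of which passed only through the time at which they were bright. Among the 27 genes measured on all 8 arrays, 1 was higher and 4 lower at 6 h, 1 and 13 at 24 h, and 2 and 17 at 72 h. That is 18.5%, 51.9% and 70.4% called, beside 18.6%, 43% and 53.8% of the 18842 genes measured on all 8 arrays. The lower shares were 14.8%, 48.1% and 63%, beside 7.54%, 20.3% and 24.7%. The choice of scale matters more, as shown by scaling the arrays to their medians. That scale rests on dim spots: the median spot read 16.8 to 20.4 before scaling. The lowest scaled signal well above background was 10 to 15.2. With median scaling the median log2 difference of all genes was 0.13 at 24 h and 0.18 at 72 h, beside -0.02 and 0 on the main scale. The Wnt genes then gave 2 higher and 14 lower at 24 h and 5 higher and 17 lower at 72 h (40% and 48.6% lower), beside 9.85% and 12.8% of all genes lower and 29% and 38.5% higher. At 6 h, the count of 7 rested on single arrays: it was 4 without the first 0 h array, 3 without either 6 h array and 2 with no filter on dim probes.

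**Figure D1:**
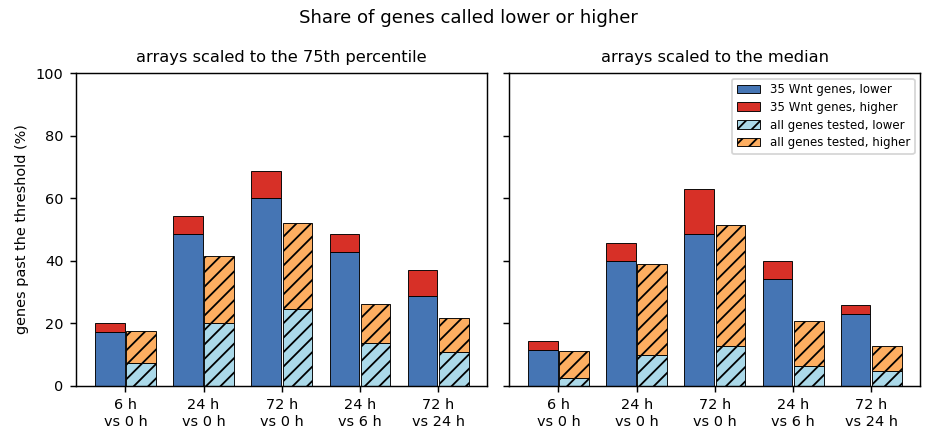
Bars show the percentage of genes past the threshold, lower (bottom segment) and higher (top segment), for the 35 Wnt genes (solid) and all genes tested (hatched) in 5 comparisons, with arrays scaled to the 75th percentile (left) or the median (right). At 72 h against 0 h, 60% of the Wnt genes and 24.6% of all genes were lower on the left, and 48.6% and 12.8% on the right.

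Genes that had fallen by 24 h were still low at 72 h. Of the 17 genes lower at 24 h, 17 were also lower at 72 h, and 4 more (Fzd1, Sfrp4, Tcf7 and Wnt4) were lower at 72 h without a call for a fall at 24 h. Axin2, Fzd4, Lef1, Sfrp2, Tcf7l1 and Wnt9a were lower at all 3 times. Of these, Sfrp2, also counted among the 17, passed the filter only through 0 h, where it was highest. Its calls did not hold under other treatments of the background, as given below. Between 6 and 24 h, 2 genes rose and 15 fell (48.6% called, beside 26.2% of all genes), and between 24 and 72 h, 3 rose and 10 fell (37.1%, beside 21.7%), the 10 including Axin2 and Wnt10a, which were not well above background at either of these times. The comparisons with 0 h share its 2 arrays, so the overlap of their calls is not independent. The same overlap was not counted over all genes, so whether it is particular to the Wnt genes was not tested.

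**Figure D2:**
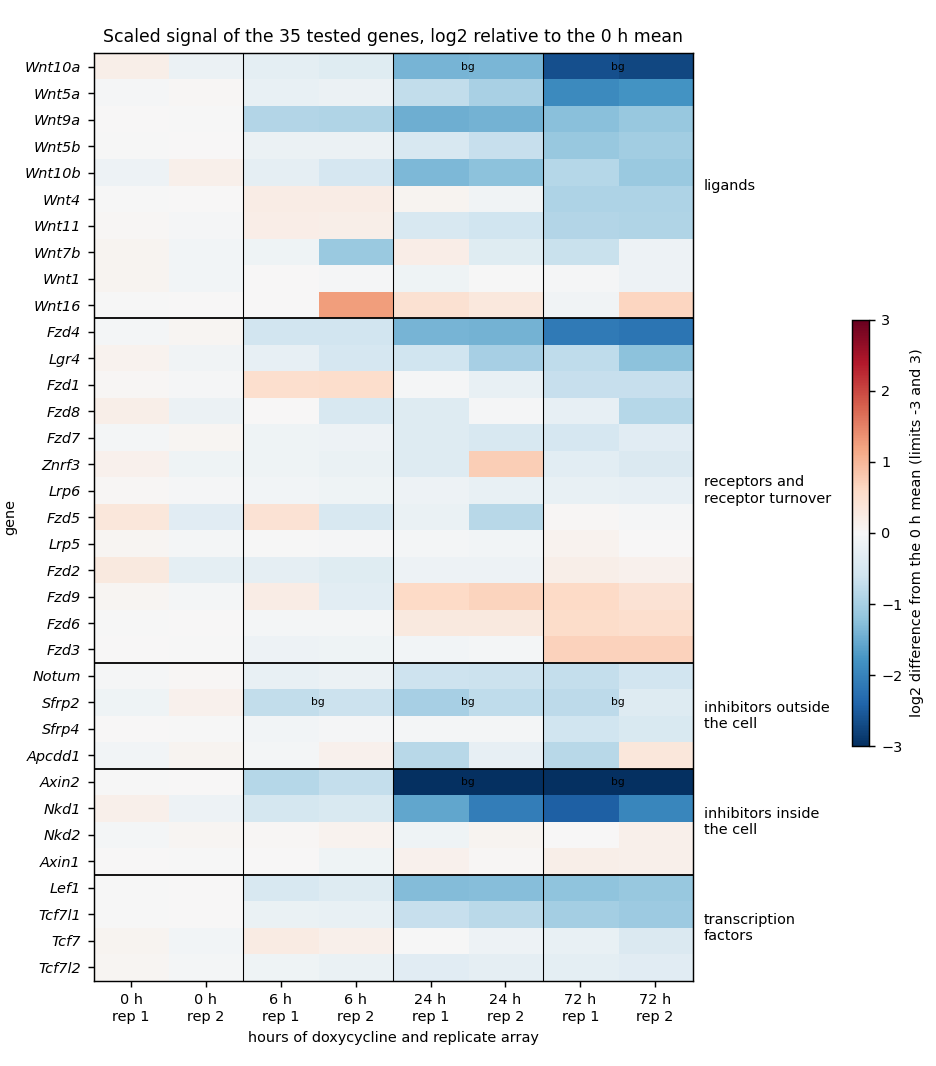
Each row is 1 of the 35 tested genes, ordered within its role by the difference at 72 h, and each column 1 array. Colour is the log2 scaled signal minus the gene's mean at 0 h (blue lower, red higher, limits -3 and 3), and bg marks times at which the gene was not well above background on either array. Most ligand rows and those of Fzd4, Axin2, Nkd1, Lef1 and Tcf7l1 are bluer at 24 and 72 h than at 0 and 6 h. Lef1, Wnt9a and Wnt10b are bluest at 24 h, while Fzd9, Fzd6 and Fzd3 turn red.

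Among the ligands, 19 were on the array and 10 were tested. None of the 10 was higher at any time against 0 h, and 1 was lower at 6 h, 6 at 24 h and 7 at 72 h. The lower shares of 10%, 60% and 70% stand beside 7.24%, 20.1% and 24.6% of all genes. Of all genes, 10.3%, 21.4% and 27.5% were higher. The 7 ligands lower at 72 h were Wnt4, Wnt5a, Wnt5b, Wnt9a, Wnt10a, Wnt10b and Wnt11. Their count was the same with median scaling. The other 3, Wnt1, Wnt7b and Wnt16, had log2 differences at 72 h of -0.10 (95% interval -0.30 to 0.10), -0.40 (-1.34 to 0.53) and 0.27 (-0.80 to 1.33). A change of 1 log2 unit lies inside the intervals of Wnt7b and Wnt16, so their arrays set no close limit.

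Wnt5a, the prototype of the ligands that signal through polarity and calcium pathways, was measured by a probe at chr14:29336664-29336723 (+) on mm9. Its scaled signals were 270.9 and 282.5 at 0 h, 237 and 246.5 at 6 h, 165.8 and 141.6 at 24 h and 73.2 and 80.2 at 72 h. The 4 times did not overlap and each was below the one before. The log2 difference from 0 h was -0.19 ± 0.09 (SE, n = 2 arrays a time, limma adjusted p = 0.199) at 6 h, -0.85 ± 0.09 (adjusted p = 0.00119) at 24 h and -1.85 ± 0.09 (adjusted p = 6.97e-05) at 72 h, the last a 3.61-fold fall. The step from 24 to 72 h was itself called, at -1.0 ± 0.09 (adjusted p = 0.00347).

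Wnt5b, its closest relative, followed a shallower course (probe at chr6:119382550-119382609, -, mm9). Scaled signals were 2699.3 and 2769 at 0 h, 2435.2 and 2436.7 at 6 h, 1953.6 and 1701.9 at 24 h, and 1240.4 and 1324.9 at 72 h. Here too the times did not overlap. The fall was -0.58 ± 0.08 at 24 h (adjusted p = 0.00244) and -1.09 ± 0.08 at 72 h (adjusted p = 0.000195, 2.13-fold).

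Wnt11, which also signals largely without beta-catenin, fell after 6 h (probe at chr7:106001985-106002045, +, mm9). Its signals were 695.8 and 663.2 at 0 h, 775.3 and 761.8 at 6 h, 483.7 and 448.6 at 24 h, and 370.5 and 363.3 at 72 h. The 6 h arrays were the highest, although that difference of 0.18 ± 0.06 missed the threshold (adjusted p = 0.0814). Wnt11 was lower by 1.46-fold at 24 h (adjusted p = 0.00103) and 1.85-fold at 72 h (adjusted p = 0.000135).

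Wnt4, a ligand of kidney and gonad development, fell late (probe from chr4:136851690 to 136852258, +, mm9). It had signals of 1789.5 and 1790.1 at 0 h, 2079.7 and 2099.9 at 6 h, 1887.6 and 1657 at 24 h, and 938.3 and 945.5 at 72 h. The 24 h arrays lay on either side of the 0 h arrays, and only the 72 h arrays lay apart below them. The difference was -0.02 ± 0.07 at 24 h and -0.93 ± 0.07 at 72 h (adjusted p = 0.000221), and the step from 24 to 72 h of -0.91 ± 0.07 was called as well (adjusted p = 0.00255).

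Wnt9a, a ligand of joint and skeletal development, was the 1 ligand already lower at 6 h (probe at chr11:59146953-59147012, +, mm9). It went from 1657 and 1651.7 at 0 h to 897.4 and 879.9 at 6 h, 603.7 and 614.8 at 24 h, and 694.9 and 751.8 at 72 h. The lowest arrays were those of 24 h, and no time overlapped another. The log2 differences were -0.90 ± 0.05 at 6 h (adjusted p = 0.000697), -1.44 ± 0.05 at 24 h (adjusted p = 7.78e-05) and -1.19 ± 0.05 at 72 h (adjusted p = 5.93e-05). Wnt9a was also the only gene lower at 24 h with a called rise afterwards, of 0.25 ± 0.05 from 24 to 72 h (adjusted p = 0.0262), which 11 of 18 alternative analyses did not call.

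Wnt10a and Wnt10b are paralogues that signal through beta-catenin and are known to restrain fat cell formation. Wnt10b (probe at chr15:98602209-98602268, -, mm9) had signals of 75.4 and 93.5 at 0 h, 69.3 and 58.9 at 6 h, 32.8 and 35.5 at 24 h, and 46.4 and 38.8 at 72 h. It was lower by 2.46-fold at 24 h (adjusted p = 0.00152) and by 1.98-fold at 72 h (adjusted p = 0.00277). Wnt10a (probe at chr1:74850633-74850692, +, mm9) was dim throughout, with 34.5 and 27.2 at 0 h, 24.9 and 24 at 6 h, 11.6 and 11.8 at 24 h, and 4.9 and 4.6 at 72 h, the last 2 times not well above background on any array. Set against the background limit, it was at least 2.33-fold lower at 24 h and at least 2.62-fold lower at 72 h. These bounds put in place of the dim signal the lowest signal well above background on that array, or the probe's own where higher, and depend on that limit. The limma tests of Wnt10a were of the log2 differences without that limit, -1.39 ± 0.11 (adjusted p = 0.000544) and -2.69 ± 0.11 (adjusted p = 5.78e-05). With the normexp correction the log2 differences were -0.38 and -0.48 in Wnt10a and -0.61 and -0.48 in Wnt10b, all 4 called.

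Some markers of other cell types moved over the same hours, in both directions. Of the 2 tested adipocyte genes, Fabp4 was higher at 72 h (log2 1.91 ± 0.13, adjusted p = 0.000185) and Pparg lower (-0.45 ± 0.06, adjusted p = 0.00166). Of the 2 skeletal muscle genes, Acta1 was higher from 6 h on (1.46 ± 0.06 at 72 h, adjusted p = 4.94e-05) and Des was not called. Of the 5 epithelial genes, Krt8 (0.93 ± 0.11, adjusted p = 0.00117) and Krt18 (0.34 ± 0.10, adjusted p = 0.0297) were higher at 72 h and Krt14 (-1.93 ± 0.14, adjusted p = 0.000231) and Esrp1 (-0.51 ± 0.11, adjusted p = 0.0117) lower.

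Of the 4 macrophage genes, 3 were higher at 24 h and 2 at 72 h, among them Cd68, which was not well above background at 0 h, and Csf1r (0.81 ± 0.08 at 24 h, adjusted p = 0.000833). Of the 3 endothelial genes, Tek was lower at 24 and 72 h and Pecam1 and Kdr were not called. Of the 10 fibroblast genes, 8 were lower and 2 higher at 72 h. The summed scaled signals, in which the brightest probes weigh most, went from 0 h to 72 h from 289 to 296 up to 705 to 746 for the adipocyte list, from 429 to 430 up to 795 to 824 for the muscle list and from 1285 to 1411 up to 1917 to 1979 for the epithelial list. They went from 6440 to 6906 to 6628 to 6915 for the macrophage list, from 887 to 914 to 860 to 864 for the endothelial list and from 288259 to 311918 down to 242546 to 242795 for the fibroblast list. The part of these shifts in the Wnt results was not tested, and less RNA per cell and fewer cells of a kind cannot be told apart in such bulk samples.

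**Figure D3:**
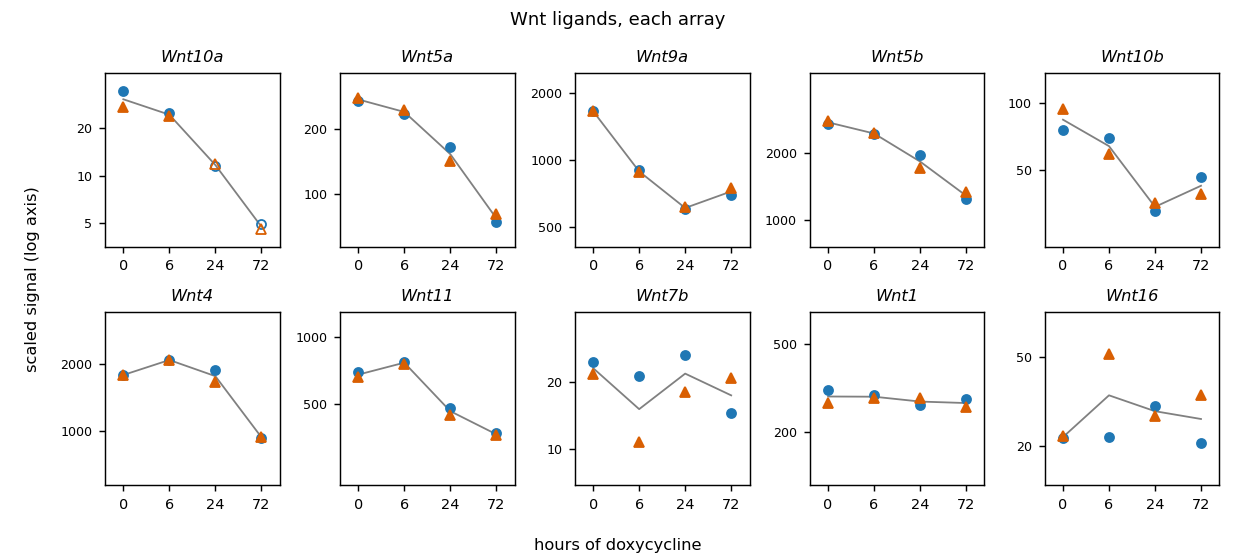
Scaled signal (log axis) of the 10 tested Wnt ligands against hours of doxycycline, with replicate 1 as circles, replicate 2 as triangles and a line through the geometric means. Open symbols are times at which neither array was well above background. Wnt5a, Wnt5b, Wnt9a and Wnt11 end below every 0 h array, Wnt4 drops only at 72 h, and in Wnt16 1 array at 6 h (51.9) stands above its replicate (21.9).

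Of 16 receptors, co-receptors and genes of receptor turnover on the array, 13 were tested, and they did not move one way. Against 0 h, 1 was higher and 1 lower at 6 h, 2 higher and 4 lower at 24 h, and 3 higher and 5 lower at 72 h. The shares called, 15.4%, 46.2% and 61.5%, are near the 17.6%, 41.5% and 52% of all genes. With median scaling the last count was 3 and 3 (23.1% each way, beside 38.5% of all genes higher and 12.8% lower), with the calls for Lrp6 and Fzd7 lost. The Frizzled genes included both the steepest receptor fall, in Fzd4, and the only calls for a rise among the 35 genes at 24 or 72 h on this scale, in Fzd3, Fzd6 and Fzd9.

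Fzd4, a receptor for several Wnts and for Norrin in blood vessel growth, is measured by a probe at chr7:96557478-96557537 (+) on mm9. Its scaled signals were 768 and 828.3 at 0 h, 535.8 and 531.7 at 6 h, 302.9 and 299.5 at 24 h, and 182.9 and 176 at 72 h. Each time lay wholly below the one before it. The log2 difference from 0 h was -0.58 ± 0.05 at 6 h (adjusted p = 0.00293), -1.40 ± 0.05 at 24 h (adjusted p = 8.79e-05) and -2.15 ± 0.05 at 72 h (adjusted p = 1.98e-05), and these 3 calls held in all alternatives run. At 72 h the signal was 4.45-fold lower.

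Fzd1 crossed over with time (probe at chr5:4754003-4754062, -, mm9). It had 1116.3 and 1076.3 at 0 h, 1546.3 and 1577.4 at 6 h, 1077.4 and 934.1 at 24 h, and 682 and 676.3 at 72 h. The 6 h arrays were the highest and the 72 h arrays the lowest. Fzd1 was 1.42-fold higher at 6 h (log2 0.51 ± 0.07, adjusted p = 0.0101, lost in 4 of 18 alternatives) and 1.61-fold lower at 72 h (log2 -0.69 ± 0.07, adjusted p = 0.000805).

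Fzd3, Fzd6 and Fzd9 went up. Fzd3, a receptor of axon guidance and planar polarity (probe at chr14:65854084-65854142, -, mm9), had 250.6 and 249.8 at 0 h, 226.9 and 228.1 at 6 h, 236.7 and 239.1 at 24 h, and 402.1 and 405.3 at 72 h. The whole rise fell between 24 and 72 h, where the step was 0.76 ± 0.04 (adjusted p = 0.00096), and the 72 h level was 1.61-fold that at 0 h (adjusted p = 9.89e-05). Fzd6, another polarity receptor (probe at chr15:38869107-38869166, +, mm9), had 419.6 and 420.8 at 0 h, 406.1 and 404.2 at 6 h, 510.9 and 515.4 at 24 h, and 620.1 and 598.5 at 72 h.

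Fzd6 thus rose in steps, by 0.29 ± 0.04 at 24 h (adjusted p = 0.00333) and 0.54 ± 0.04 at 72 h (adjusted p = 0.000259), and its 24 and 72 h arrays all lay above those of 0 and 6 h. Fzd9 (probe at chr5:135724815-135724874, -, mm9) was near background, with 15.4 and 14.4 at 0 h, 17.3 and 11.9 at 6 h, 22.6 and 23.8 at 24 h, and 22.5 and 20.1 at 72 h, and only 1 of the 2 arrays at 0 h was well above background. Its rise of 0.64 ± 0.17 at 24 h (adjusted p = 0.0303) was lost in 5 of 17 alternatives, and that of 0.52 ± 0.17 at 72 h (adjusted p = 0.05 after rounding, just under the threshold) in 9 of 17. Fzd9 passed the filter only through 24 and 72 h, the times at which it was highest, so a rise was favoured by that choice. With the normexp correction its log2 differences were 0.16 at 24 h and 0.17 at 72 h.

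Lgr4, the receptor through which R-spondins protect Frizzleds from degradation (probe at chr2:109853567-109853626, +, mm9), had signals of 84.4 and 72.4 at 0 h, 65.4 and 54.9 at 6 h, 52 and 39.3 at 24 h, and 46.4 and 33.1 at 72 h. The first replicate was the brighter at every time, and within each replicate the signal fell at every step. With the replicate number as a block Lgr4 was also called lower at 6 h (-0.38, adjusted p = 0.0391, beside 0.279 without the block). Lgr4 was lower by 0.79 ± 0.22 at 24 h (log2, adjusted p = 0.0314, lost in 6 of 18 alternatives) and by 0.99 ± 0.22 at 72 h (adjusted p = 0.0114, lost in 1 of 18). The size depends on the background treatment: with the normexp correction the log2 differences of Lgr4 were -0.37 and -0.41, both called.
Znrf3, a ubiquitin ligase that removes Frizzleds, was not called at any time, with log2 differences of -0.16, 0.17 and -0.39 at 6, 24 and 72 h and standard errors of 0.34. At 24 h its arrays read 29.2 and 62.8, and without the first of them Znrf3 was called higher at that time (0.73, adjusted p = 0.0147). With 1 or the other of the 24 h arrays left out it was called lower at 72 h (-0.39, adjusted p = 0.0337).

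Lrp6 and Fzd7 were called lower at 24 and 72 h by small amounts. Lrp6, the main co-receptor, fell by 0.19 ± 0.05 at 24 h and by 0.22 ± 0.05 at 72 h (adjusted p = 0.0271 and 0.0134), calls lost with median scaling, and its second probe differed by 0 and -0.10. Fzd7 fell by 0.43 ± 0.07 and 0.42 ± 0.07 (adjusted p = 0.00628 and 0.00515), while its second probe was lowest at 6 h (-0.60) and stood at -0.43 at 24 h and -0.18 at 72 h. Lrp5, the other co-receptor, had log2 differences of -0.03, -0.07 and 0.06 with standard errors of 0.06, so at 72 h its 95% interval was -0.08 to 0.20.

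The 2 Fzd2 probes differed in their calls. The gene's brighter probe (chr11:102467613-102467672, +, mm9), which stood for the gene, had 3862.2 and 2578.5 at 0 h, 2602.3 and 2448.6 at 6 h, 2861.8 and 2844.7 at 24 h, and 3547.8 and 3463.8 at 72 h, and was not called. The spread of the 0 h pair was wider than that of any later pair, and 1 array of it decides the result. Without the second 0 h array the brighter probe was lower at 6 h (-0.61, adjusted p = 0.0172) and 24 h (-0.44, adjusted p = 0.0104), and without the first it was higher at 72 h (0.44, adjusted p = 0.00664). The dimmer probe (chr11:102469045-102469104, +, mm9) had 171 and 159.1 at 0 h, 89.1 and 90.5 at 6 h, 83.3 and 85.4 at 24 h, and 113.8 and 118.3 at 72 h, with log2 differences of -0.88, -0.97 and -0.51 (adjusted p over all probes of 0.00114, 0.000272 and 0.00096). Fzd5 and Fzd8 were near background and not called.

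**Figure D4:**
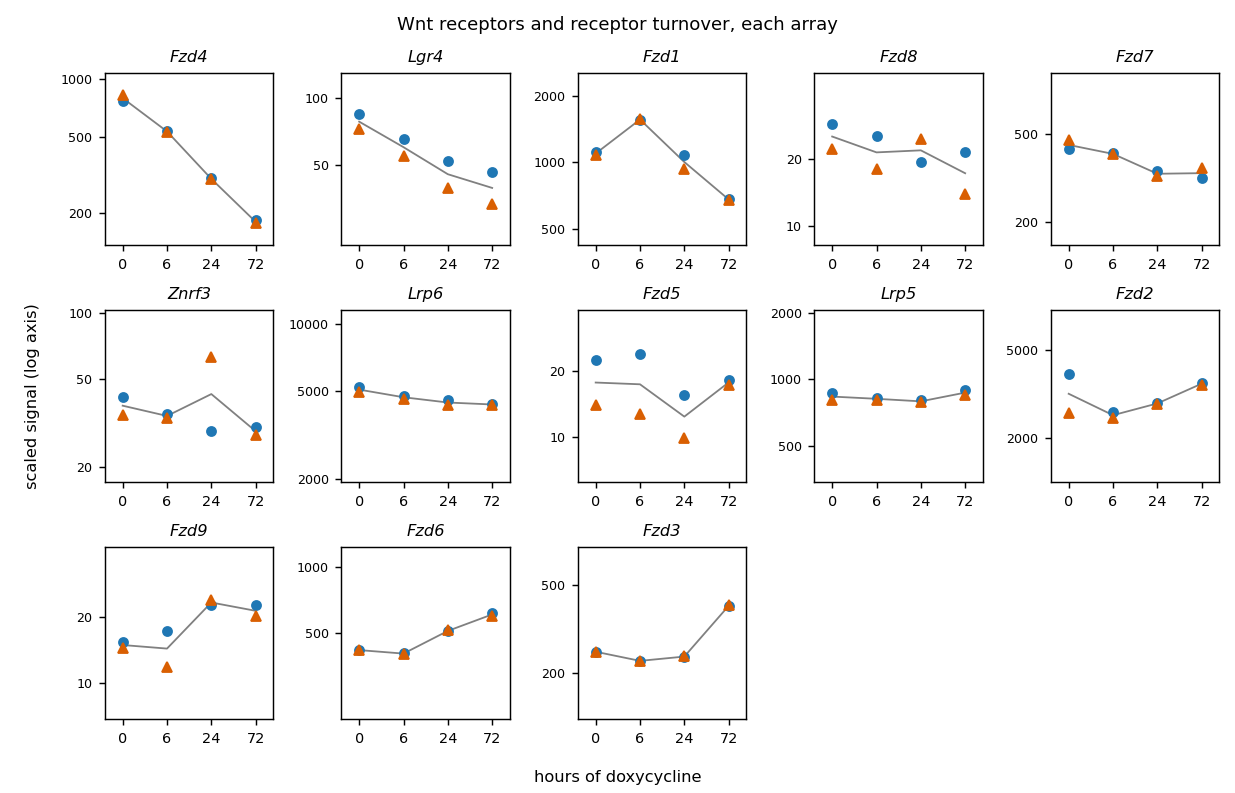
Scaled signal (log axis) of the 13 tested receptors, co-receptors and receptor turnover genes against hours of doxycycline, with replicate 1 as circles, replicate 2 as triangles and a line through the geometric means. Fzd4 declines at every step, Fzd1 peaks at 6 h and ends lowest at 72 h, Fzd6 and Fzd3 end above every earlier array, and Fzd2 has a wide pair at 0 h (3862.2 and 2578.5).

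Of the 4 intracellular inhibitors, Axin2 and Nkd1 fell and Axin1 and Nkd2, their relatives, were not called. The shares called at 6, 24 and 72 h were 25%, 50% and 50%, beside 17.6%, 41.5% and 52% of all genes. Those of 24 and 72 h are thus near the background. All of these calls were falls, and 7.24%, 20.1% and 24.6% of all genes were lower. Axin2, a scaffold of the destruction complex whose own gene is induced by beta-catenin (probe at chr11:108812034-108812093, +, mm9), had 67.4 and 67.8 at 0 h, 37.4 and 41.3 at 6 h, 7.8 and 5.7 at 24 h, and 2.9 and 3.3 at 72 h. Neither array of 24 h or of 72 h was well above background. At 6 h it was lower by 0.78 ± 0.16 (log2, adjusted p = 0.0246), which 6 of 17 alternatives did not call, among them median scaling (adjusted p = 0.0548). Set against the background limit, Axin2 was at least 5.24-fold lower at 24 h and at least 5.78-fold lower at 72 h. The limma tests were of the log2 differences without that limit, -3.34 ± 0.16 (adjusted p = 0.000143) and -4.47 ± 0.16 (adjusted p = 4.03e-05). These 2 calls held in all 17 alternatives. The size is less sure: with the common floor of 15.2 the log2 difference of Axin2 was -2.15 at both times, and with the normexp correction -0.89 and -0.99. A second Axin2 probe was well above background on 0 of 8 arrays and says nothing on the change.

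Nkd1, which binds Dishevelled and restrains the pathway (probe at chr8:91116160-91116219, +, mm9), had 79.8 and 64.6 at 0 h, 49.9 and 52.4 at 6 h, 24.5 and 17 at 24 h, and 13.2 and 18.6 at 72 h. The 24 and 72 h arrays lay below those of 0 and 6 h, and overlapped each other. The fall was 3.52-fold at 24 h (log2 -1.81 ± 0.24, adjusted p = 0.00244), when 1 of the 2 arrays was well above background, and 4.58-fold at 72 h (log2 -2.20 ± 0.24, adjusted p = 0.000821). Its size depends on the background treatment: with the normexp correction Nkd1 had log2 differences of -0.65 and -0.72, both called. Nkd2 had log2 differences of 0.07, -0.03 and 0.08 with standard errors of 0.09. Axin1 had -0.05, 0.08 and 0.17 with standard errors of 0.06 (adjusted p = 0.0671 at 72 h). With median scaling, Axin1 and Nkd2 were called higher at 72 h, by 0.35 and 0.26 (adjusted p = 0.0369 and 0.0221).

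Of the 12 inhibitors that act outside the cell or at its surface, 4 were tested. Notum, an enzyme that inactivates Wnts by removing their lipid (probe at chr11:120515209-120515268, -, mm9), had 2137.8 and 2211.2 at 0 h, 1872.9 and 1937 at 6 h, 1415.6 and 1400.2 at 24 h, and 1328.2 and 1456.3 at 72 h. The 24 and 72 h arrays lay at a common lower level. Notum was lower by 0.63 ± 0.06 at 24 h and by 0.64 ± 0.06 at 72 h (log2, adjusted p = 0.000802 and 0.000452).

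Sfrp4, a secreted decoy for Wnts (probe at chr13:19724488-19724547, +, mm9), had 240.7 and 235.9 at 0 h, 224 and 231.6 at 6 h, 227 and 230.2 at 24 h, and 157.4 and 174.1 at 72 h. Only the 72 h arrays stood apart, at 1.44-fold below 0 h (log2 -0.53 ± 0.06, adjusted p = 0.00103). Sfrp2, a related decoy (probe at chr3:83577864-83577923, +, mm9), was barely above background at 0 h, with 14.8 and 17.6, and was not well above it at any later time, with 8.1 to 12.3 on the 6 later arrays. Sfrp2 passed the filter only through 0 h, the time at which it was highest, so a fall was favoured by that choice. The calls at 6, 24 and 72 h (adjusted p = 0.0413, 0.00815 and 0.0258) ended with the common floor of 15.2 on all arrays, where the log2 difference was -0.11 at each time (adjusted p = 0.369, 0.299 and 0.271), and with the normexp background correction (adjusted p = 0.275, 0.148 and 0.0753). No size is given for it. Apcdd1 was not called, and its arrays read 33.3 and 75.8 at 72 h.

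All 4 tested transcription factors were lower at 72 h, beside 24.6% of all genes. With median scaling 2 of the 4 were lower, beside 12.8% of all genes, and with quantile normalization or the normexp correction 3 were. Lef1, the factor that is itself a target of the pathway, was measured by a probe at chr3:130926200-130926259 (+) on mm9. It had 3257.7 and 3353.3 at 0 h, 2362.6 and 2541.5 at 6 h, 1351 and 1374.5 at 24 h, and 1443.3 and 1501.9 at 72 h. No time overlapped another, and the lowest arrays were those of 24 h. The log2 differences were -0.43 ± 0.05 at 6 h (adjusted p = 0.0066), -1.28 ± 0.05 at 24 h (adjusted p = 0.000114) and -1.17 ± 0.05 at 72 h (adjusted p = 6.23e-05). A second Lef1 probe gave -0.50, -1.28 and -1.23.

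Tcf7l1, the family member known mainly as a repressor (probe at chr6:72576377-72576436, -, mm9), had 292.1 and 292.5 at 0 h, 252.6 and 250.7 at 6 h, 179.8 and 167.1 at 24 h, and 145.1 and 138.1 at 72 h. Each time lay below the one before. The fall at 6 h of 0.22 ± 0.05 (adjusted p = 0.0464) was lost in 11 of 18 alternatives, whereas those of 0.75 ± 0.05 at 24 h (adjusted p = 0.000362) and of 1.05 ± 0.05 at 72 h (adjusted p = 7.94e-05) held in all 18.

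Tcf7l2 and Tcf7 moved less. The brightest Tcf7l2 probe was lower by 0.31 ± 0.06 at 24 and at 72 h (adjusted p = 0.00951 and 0.00752), calls lost with median scaling (-0.16 and -0.13). A second probe of Tcf7l2, at chr19:55994029-55994088 (+) on mm9, gave larger falls of 0.73 and 0.81 (adjusted p over all probes of 0.00359 and 0.00167), so the size depends on the probe. Tcf7 was lower at 72 h by 0.33 ± 0.10 (adjusted p = 0.033), lost in 9 of 18 alternatives, and its second probe gave -0.36.

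**Figure D5:**
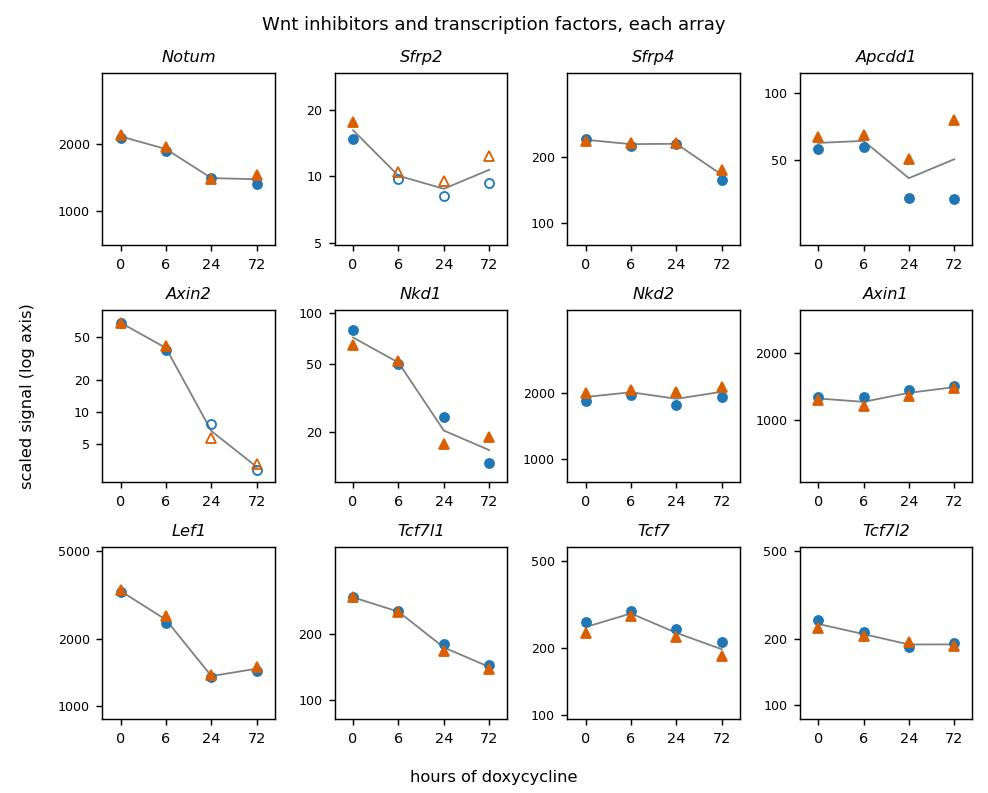
Scaled signal (log axis) of the 8 tested inhibitors and 4 tested transcription factors against hours of doxycycline, with replicate 1 as circles, replicate 2 as triangles and a line through the geometric means. Open symbols are times at which neither array was well above background. Axin2 falls below background, Nkd1 ends below every 0 h array, Lef1 and Tcf7l1 fall without overlap of 0 and 24 h, and Axin1 and Nkd2 are not called on this scale.

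The 21 genes that did not pass the detection filter were Dkk1, Dkk2, Dkk3, Dkk4, Frzb, Sfrp1, Sfrp5, Wif1, Fzd10, Lgr5, Rnf43, Sp5, Wnt2, Wnt2b, Wnt3, Wnt3a, Wnt6, Wnt7a, Wnt8a, Wnt8b and Wnt9b. Of these, 16 were not well above background on any array, and the other 5 (Dkk3, Sfrp1, Sfrp5, Sp5 and Wnt7a) were so on single arrays. Just inside the filter were Sfrp2 (14.8 and 17.6 at 0 h) and Fzd5 (18.2 and 17.2 at 72 h), and just outside it Sp5 (18.1 and 11.1 at 0 h) and Sfrp5 (16.4 and 10.2 at 0 h). For such genes these arrays set only an upper bound on the level.

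The rest of the pathway was described from 5 lists. Among ligand processing factors and secreted modulators, 10 of 18 were tested, with 2 higher and 8 lower at 24 h and 2 higher and 7 lower at 72 h (2 and 5 with median scaling), and a median log2 difference at 72 h of -0.47. The shares called at 24 and 72 h were 100% and 90%, beside 41.5% and 52% of all genes. Rspo1, a secreted amplifier of Wnt signalling that binds Lgr4, went from 45960.9 and 44753.8 at 0 h to 13166.8 and 11341.4 at 24 h and 8178 and 8695.1 at 72 h, a 5.38-fold fall (adjusted p = 3.9e-05). Rspo3, its relative, went from 139.4 and 136.4 to 34.7 and 34.4 at 24 h (3.99-fold lower, adjusted p = 0.00035) and was at least 11.8-fold lower at 72 h, when neither array was well above background. Cpz, a secreted carboxypeptidase that binds Wnts, was 7.99-fold lower at 72 h (adjusted p = 7.34e-05). Tmed5, a cargo receptor of Wnt export, was 1.51-fold higher at 6 h (adjusted p = 0.00269).

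Of the cytoplasmic signalling and destruction complex genes, 26 of 27 were tested, with 6 higher and 4 lower at 6 h, 7 and 4 at 24 h, and 9 and 5 at 72 h. The shares called, 38.5%, 42.3% and 53.8%, stood beside 17.6%, 41.5% and 52% of all genes, so those of 24 and 72 h are near the background. The largest falls at 72 h were in Amer1 (log2 -1.78 ± 0.04), a destruction complex scaffold, Btrc (-1.55 ± 0.09), the ligase subunit that marks beta-catenin for degradation, and Cxxc5 (-1.22 ± 0.07), an inhibitor of Dishevelled. Their adjusted p were 1.89e-05, 0.000116 and 9.37e-05. At 6 h Frat2, which holds back the kinase Gsk3, was 1.51-fold lower (adjusted p = 0.00438), and at 72 h it was 1.47-fold higher (adjusted p = 0.001). The median of the list was 0.03 at 72 h.

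All 15 listed nuclear cofactors were tested, with 1 higher and 2 lower at 6 h, 1 and 7 at 24 h, and 1 and 10 at 72 h, which is 20%, 53.3% and 73.3% called beside 17.6%, 41.5% and 52% of all genes. With median scaling the last count was 4 and 4, so the balance of these calls depends on the scale. Tle3, a Groucho-type corepressor, was higher by 0.32 ± 0.06 at 6 h (adjusted p = 0.019) and lower by 1.26 ± 0.06 at 72 h (adjusted p = 6.23e-05). Tle2 had the largest difference at 24 h, of -2.57 ± 0.43 (adjusted p = 0.00586), but its 0 h arrays read 107.3 and 290.3. Tle1 was lowest at 24 h (-0.56 ± 0.04, adjusted p = 0.000505).

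Among receptors and polarity genes of the branches without beta-catenin, 14 of 17 were tested, with 0 higher and 1 lower at 6 h, 2 and 5 at 24 h, and 3 and 4 at 72 h (5 and 3 with median scaling). The shares called were 7.14%, 50% and 50%, beside 17.6%, 41.5% and 52% of all genes. The 3 largest differences at 72 h were falls in Prickle1 (-1.10 ± 0.06), Ptk7 (-0.99 ± 0.10) and Daam2 (-0.83 ± 0.07), with adjusted p of 0.000107, 0.000547 and 0.000345. Daam2, a formin-related partner of Dishevelled, was the 1 gene of the list called at 6 h (-0.49 ± 0.07, adjusted p = 0.00942).

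Other genes reported as targets of beta-catenin and TCF went both ways. Of 32 listed, 27 were tested, with 10 higher and 4 lower at 6 h, 11 and 8 at 24 h, and 10 and 11 at 72 h (10 and 7 with median scaling). The shares called were 51.9%, 70.4% and 77.8%, beside 17.6%, 41.5% and 52% of all genes. The largest rises at 6 h were in Fosl1 (60.6 and 74.3 at 0 h, 958.2 and 975.7 at 6 h, adjusted p = 6.83e-05), Sox9 (6.87-fold, adjusted p = 6.83e-05) and Myc (2.7-fold, adjusted p = 0.000421). Fgf9, a growth factor, fell from 146 and 147.9 at 0 h to 75.8 and 67.4 at 6 h and 26 and 15.5 at 24 h. Set against the background limit, it was at least 12.6-fold lower at 72 h. The limma test there was of the difference without that limit (adjusted p = 8.98e-05). Of the 7 textbook targets named at the start, Axin2, Nkd1, Notum and Lef1 were lower at 24 h (limma adjusted p of 0.000143 to 0.00244). Znrf3 was not called (0.17 ± 0.34), and Sp5 and Rnf43 were not tested. Of all genes tested, 20.1% were lower at 24 h, and the 7 were named with earlier results of these data known.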

How the data were processed

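RNA of 8 samples was labelled with Cy3 from 500 ng of total RNA, per the labels' protocols, and hybridised to 1-colour Agilent mouse arrays. Per the file headers, the software was Feature Extraction 10.5.1.1 and the build mm9 (the submitters' processing notes name 10.7.3.1), and the processed signal is an intensity on a linear scale, already background-subtracted and spatially detrended. The deposited table of values is the same intensity, to within 0.497%. Flags for well above background and for outlier spots are the deposited software's; outlier spots were left out.

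From these, log2 of the deposited processed signal minus each array's 75th percentile over 59305 spots that are not controls was computed, and replicate spots were averaged per probe. Kept probes were well above background on both arrays of at least 1 time (28609 of 55681), and the brightest kept probe stood for its gene. The scaled signal restores the common 75th percentile of 379.7. Gene names came from the file for 26005 probes and otherwise from RefSeq by accession (26582), symbol (2602) or synonym (492). limma 3.58.1 in R 4.3.3 fitted 4 means to 8 arrays (4 residual degrees of freedom, prior 1.7), with Benjamini-Hochberg adjustment over all genes and a threshold of 0.05. The method was tested on simulated data. Figures used Python 3.11.15, pandas 2.3.3 and matplotlib 3.10.9.

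All 8 arrays lay on 1 slide, with replicate number following 1 slide coordinate and time the other, so that slide position along that second coordinate and time cannot be told apart. The number of arrays limits the precision, and the median standard error of a difference in the 35 genes was 0.08 on the log2 scale. The genes, the lists and the promoter letters searched were chosen with earlier results of these data known. Full values were given for genes past the threshold against 0 h with a log2 difference of at least 0.5, and up to 3 called genes of each list were named per comparison. Probe positions are those of the files (mm9), and their exon or UTR was not analysed here. RefSeq promoter windows are on GRCm38.p6. Alternatives changed the scaling (quantile, median), the background correction (normexp, offset 50), the filter on dim probes (none, or all 8 arrays), a common floor, the probe choice, the table used, the replicate block, the arrays fitted, and each array left out.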

Additional observations from a re-analysis of the deposited data

How the results depend on the processing

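The counts of called Wnt genes were 7, 19 and 24 at 6, 24 and 72 h against 0 h, 17 from 6 to 24 h and 13 from 24 to 72 h. With no filter on dim probes they became 2 at 6 h and 8 from 24 to 72 h, and fitting only the arrays compared gave 5 for the latter. Leaving out 1 array at a time gave 3 to 7, 16 to 20, 21 to 24, 12 to 16 and 6 to 13; the 6 from 24 to 72 h came without the first 72 h array. For all genes, 3662 were called at 6 h, and 2284 with median scaling, 871 with no filter and 1816 with only the arrays compared. At 24 h no filter gave 5600 for 8648. From 6 to 24 h, 5453 became 2044 with no filter and 2685 with only the arrays compared. From 24 to 72 h, 4512 became 2627 with median scaling, 929 with no filter and 1080 with only the arrays compared. Leaving out 1 array gave 1218 to 3592, 6637 to 7902, 8176 to 10958, 2628 to 4655 and 1082 to 3919 genes for the 5 comparisons in the same order.

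The replicate block gave 9, 19, 25, 18 and 14 Wnt genes. Same-numbered arrays share a slide coordinate as well as a number, and the lowest signal well above background was 10 to 11.9 on the 4 first replicates and 13.7 to 15.2 on the 4 second ones; nothing in the labels says that they share a culture. The differences between the replicates of 1 time and another correlated across genes with r from 0.06 to 0.17, with 2 numbers. Against 0 h the block added the calls of Lgr4 and Tcf7 at 6 h and of Axin1 at 72 h (adjusted p = 0.0391, 0.0442 and 0.0305) and ended none. Of the 50 calls of Wnt genes against 0 h, 33 held in all alternatives run and 17 were lost in at least 1. Lost were the calls of Axin2, Fzd1, Lef1 and Tcf7l1 at 6 h and of Fzd7 and Tcf7 at 72 h. Every call of Sfrp2, Fzd9, Lgr4, Lrp6 and Tcf7l2 was lost in at least 1 alternative as well. No difference changed sign with a call. Signal over background limits Axin2, Wnt10a, Sfrp2, Fzd5, Fzd8, Fzd9, Nkd1 and Wnt7b, which were not well above background on all 8 arrays.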

Other observations

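Single arrays held values that their replicates did not share, and these were noticed after the data were seen. The Wnt7a probe, which did not pass the detection filter, had a scaled signal of 392.8 on the first 24 h array and 3.5 on the second, with 2.1 to 16.6 on the other 6. Wnt16 had 51.9 on the second 6 h array and 21.9 on the first, and its second probe, otherwise at 2.4 to 6.2, read 16.6 on that same array. Sfrp1 had 19.4 on the first 6 h array and 4.2 on the second. Sp5, a target of the pathway below the filter, read 18.1 and 11.1 at 0 h, 11.1 and 14.2 at 6 h, 5.1 and 3.7 at 24 h and 2.4 and 7.7 at 72 h.

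Of the 6 genes with more than 1 kept probe, the probes of Fzd2, Fzd7, Lrp6 and Tcf7l2 (3 probes) differed in which comparisons with 0 h passed the threshold over all probes, and those of Lef1 and Tcf7 did not. The third Tcf7l2 probe, dimmer still, gave -0.40, -0.86 and -1.29 at 6, 24 and 72 h, of which the last passed the threshold over all probes (adjusted p = 0.0282), so the 3 probes of this gene gave differences at 72 h of -0.31, -0.81 and -1.29.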
